A study of Mus musculus with 12 samples.

Results

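Ucp1-positive adipocyte nuclei of cold-exposed iWAT, often called beige adipocytes, were described here across genes. They were taken from the iWAT library of 6-month-old male C57BL/6J mice fed normal chow and kept at 4 °C for 3 days. A nucleus entered with at least 1000 UMIs (unique molecular identifiers, each standing for 1 captured RNA molecule) and at most 10% of them from mitochondrial genes. An adipocyte had at least 3 summed UMIs of Adipoq, Plin1, Plin4, Lipe, Cidec and Acsl1, more than its sum of Flt1, Ptprb, Lama2, Dcn, Mrc1 and Ptprc. Of the 2872 adipocytes in this library, 155 held at least 1 Ucp1 UMI and 2717 held none. The library had 5028 barcodes, of which 3959 were kept, and the whole study had 119035 barcodes, of which 86742 were kept. Since Ucp1 and the adipocyte genes chose these nuclei, their values are given below as a description only.

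The study profiled single nuclei of adipose depots labelled iBAT, mPRAT, lPRAT and iWAT from male C57BL/6J mice at several ages, with 12 libraries, 1 per group. The depot abbreviations are not spelled out in the labels. Beside cold iWAT, gene levels were taken from iWAT at 22 °C, iBAT at 4 °C for 3 days, and mPRAT at 22 °C and at 4 °C for 3 days, all titled 6 months old. The share of Ucp1-positive nuclei was taken from all 12, which add iBAT at 1, 2 and 6 months, mPRAT at 1 and 2 months and lPRAT at 2 and 6 months, all at 22 °C. The age field gives 4, 8 and 16 weeks for samples titled 1, 2 and 6 months, and the number of mice behind a library is not given. The labels name no transgene, deletion or drug for any of these groups. With 1 library per group no difference between depots or temperatures could be tested, and nuclei of 1 library are not replicates. The 95% intervals below therefore cover counting error only, and depot or temperature and library cannot be told apart.

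Uncoupling protein 1, the product of Ucp1, lets protons return across the inner mitochondrial membrane without making ATP, so that respiration releases heat. Brown fat cells carry it constantly, and scattered cells of some white depots gain it in the cold under noradrenaline from sympathetic nerves. Noradrenaline acts through beta-adrenergic receptors, cyclic AMP and protein kinase A, which start lipolysis and thermogenic gene expression. Such cells also burn fatty acids, take up glucose and remake triglyceride from glycerol.

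Ucp1 lies on chromosome 8 (GRCm38, 83290352 to 83298452, plus strand). The promoter windows of Ucp1, Slc27a2 and Dio2 are shown because each holds 1 of the motifs searched: Ucp1 chose the nuclei, and the other two have high ratios below. Each window is the 250 bases before a RefSeq start in GRCm38.p6, written 5′ to 3′ on the gene's strand, with the motif in capitals. The Ucp1 window is chr8:83290098-83290347 on the plus strand. The Slc27a2 window is chr2:126552774-126553023 on the plus strand, and the Dio2 window is chr12:90739039-90739288 on the minus strand.
Ucp1: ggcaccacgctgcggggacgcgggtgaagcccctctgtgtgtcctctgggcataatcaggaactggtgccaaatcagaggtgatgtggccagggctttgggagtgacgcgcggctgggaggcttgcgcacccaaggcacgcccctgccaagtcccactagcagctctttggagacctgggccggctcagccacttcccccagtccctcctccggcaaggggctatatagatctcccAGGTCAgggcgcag
Slc27a2: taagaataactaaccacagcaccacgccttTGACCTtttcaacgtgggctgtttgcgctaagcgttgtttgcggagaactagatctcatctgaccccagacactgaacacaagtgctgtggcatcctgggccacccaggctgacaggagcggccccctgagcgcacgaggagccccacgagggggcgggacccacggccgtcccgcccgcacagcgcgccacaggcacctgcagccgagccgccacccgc
Dio2: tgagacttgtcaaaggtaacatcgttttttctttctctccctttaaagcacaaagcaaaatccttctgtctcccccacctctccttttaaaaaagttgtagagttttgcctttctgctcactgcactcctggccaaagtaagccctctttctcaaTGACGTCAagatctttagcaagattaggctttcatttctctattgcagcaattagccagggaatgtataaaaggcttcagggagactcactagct
The Ucp1 window had 1 AGGTCA, a core motif bound by nuclear receptors, 14 bases before the start. In Slc27a2, which encodes a very-long-chain acyl-CoA synthetase, the same motif lay on the other strand, 220 bases before the start. In Dio2, the deiodinase that turns thyroxine into active thyroid hormone, TGACGTCA, the cAMP response element, lay 95 bases before the start. Both strands were searched for AGGTCA, for TNAAGGTCA, which contains it, for TGACGTCA and for TGACGCAA. Of all 32851 windows of this length, 4607 held AGGTCA, and 1.14% held TNAAGGTCA, 1.55% TGACGTCA and 0.438% TGACGCAA. Of 20 windows that matched 15 of the thermogenic genes and Ucp1, 2 held AGGTCA, 1 held TGACGTCA and 0 held either of the others. A match describes these letters and is not a measured site.

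Ucp1 was found in 155 adipocytes, with 46 nuclei at 1 UMI, 29 at 2, 28 at 3, 17 at 4 and 35 at 5 or more. The highest nucleus had 21, and the sum was 534 UMIs. In their pooled RNA the level of Ucp1 was 681 CPM (UMIs per 1000000 UMIs, 95% interval 624 to 741). The nuclei just inside the rule were thus the 46 with a single Ucp1 UMI. Just outside lay 2 kept nuclei with 1 Ucp1 UMI each that had an adipocyte marker sum under 3. Of the 155 nuclei, 3 had a marker sum of 3 to 5 and the median was 28, against 37 in Ucp1-zero adipocytes. The 6 genes of other cell types had 0 UMIs in 140 of the 155. Another 8 barcodes with Ucp1 were under the UMI limit or over the mitochondrial limit.

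Ucp1 detection rises with depth, so shares were compared after every nucleus was thinned at random to 1000 UMIs. In cold iWAT 88 of 2872 adipocytes then had a Ucp1 UMI, 3.06% (exact Clopper-Pearson 95% interval 2.46 to 3.76), against 5.40% (4.60 to 6.29) without thinning. In iWAT at 22 °C the thinned share was 5 of 4922, 0.102% (0.0330 to 0.237), and 12 nuclei, 0.244%, without thinning. In cold iBAT the thinned share was 72.9% and in cold mPRAT 40.1%. At 22 °C and 6 months, iBAT stood at 30.4% and mPRAT at 13.2%. Both lPRAT libraries had 0 nuclei with Ucp1, of 982 and of 2200, which allows a share of up to 0.305% and 0.136% (here and below, the limit for a count of 0 is 3 counts of the total, not the Clopper-Pearson bound). The lowest of the iBAT and mPRAT libraries was mPRAT at 1 month, at 8.97% (7.87 to 10.2). Cold iWAT thus lay below all iBAT and mPRAT libraries and above iWAT at 22 °C, with intervals that do not overlap, while those of iWAT at 22 °C and of lPRAT overlapped.

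**Figure D1:**
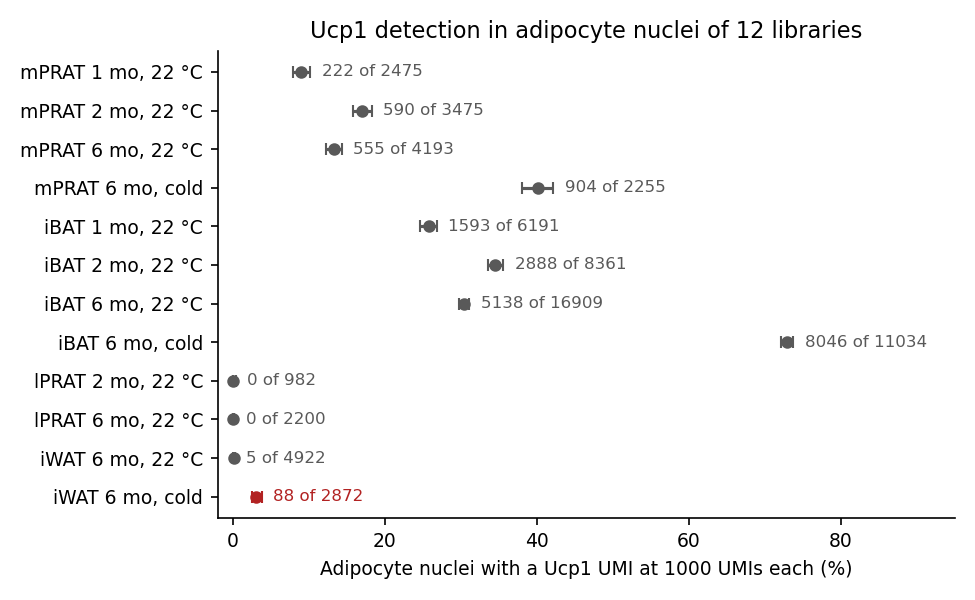
Share of adipocyte nuclei with a Ucp1 UMI after thinning each nucleus to 1000 UMIs (percent, horizontal axis) in 12 libraries, with exact 95% intervals and the numbers of nuclei beside each point. Cold iWAT (red) stands at 3.06%, above iWAT at 22 °C (0.102%) and below the mPRAT and iBAT libraries.

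Ucp1 was also counted in other nuclei, where free RNA, doublets or misassigned nuclei could bring it and were not told apart. In cold iWAT it had a UMI in 0 of 129 endothelial nuclei (which allows up to 2.33%), in 0 of 484 stromal nuclei (up to 0.620%) and in 2 of 249 immune nuclei, 0.803% (0.0974 to 2.87). Their median depths were 1541, 2152 and 1488 UMIs, against 3953 in the Ucp1-positive adipocytes. In cold iBAT the same nuclei had Ucp1 in 33.5% to 45.7% of cases and in cold mPRAT in 5.66% to 7.38% before thinning. In iWAT at 22 °C it was found in 2 of 125 endothelial nuclei, 1.60% (0.194 to 5.66), in 0 of 800 stromal nuclei (up to 0.375%) and in 0 of 752 immune nuclei (up to 0.399%), at median depths of 1781, 3588 and 1960 UMIs. The share of adipocytes there, 0.244% (0.126 to 0.425), lies within what these other nuclei allow, and the part of free RNA in it was not tested. Ucp1-positive adipocytes of cold iWAT were shallower than the Ucp1-zero ones, with medians of 3953 against 4815 UMIs and 1871 against 2070 genes. Their median share of mitochondrial UMIs was 0.157% against 0.0695%. Of their barcodes, 4 (2.58%) also occurred in another library, against 157 (3.12%) of all barcodes of this library. Cold mPRAT stood apart in having 7270 of 11157 barcodes over the mitochondrial limit.

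Of the markers of these nuclei, Plin1 and Adipoq belong to the rule and only Cidea is outside it. Cidea, a lipid droplet protein typical of thermogenic fat, had a UMI in 132 of 155 nuclei. Plin1, the perilipin of the adipocyte droplet, was found in 141. Adipoq, the gene of adiponectin, was found in 24, at 53.5 CPM (38.6 to 72.4) against 163 CPM in Ucp1-zero adipocytes and 0 to 8.29 CPM in endothelial, stromal and immune nuclei. Pparg and Ghr, adipocyte genes outside the rule, summed to 10256 CPM against 23242 CPM in the Ucp1-zero adipocytes. Stromal progenitor markers (7 genes, none at 0) summed to 156 CPM against 270.02 CPM, and blood endothelial markers (4 genes, none at 0) to 115 CPM against 68.5 CPM. These sums rest unevenly on their genes. Bmper alone gave 85.4 CPM of the 156 CPM, and Cdh5 and Cyyr1 gave 1.27 and 17.8 CPM of the 115 CPM. All 4 lymphatic endothelial and all 4 epithelial markers (Krt8, Krt18, Epcam and Elf5) were at 0 in the Ucp1-positive nuclei. Macrophage markers (2 of 5 at 0) summed to 8.92 CPM against 20.8 CPM, and skeletal muscle markers (3 of 4 at 0) to 1.27 CPM against 14.8 CPM. Mural markers summed to 10.2 CPM against 8.70 CPM.

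Within cold iWAT, Ucp1-positive and Ucp1-zero adipocytes shared 1 library and could be set side by side free of library differences. UMIs were summed over each class, 784352 and 17128200 in all, and ratios were taken on a log2 scale with 10 CPM added to both levels. That addition understates the ratio of low genes. A gene counted as different past 2-fold. Of 12652 genes with at least 20 UMIs, 516 (4.08%) were at least 2-fold higher in Ucp1-positive adipocytes and 471 (3.72%) at least 2-fold lower, and the median log2 ratio was -0.03. With edgeR's TMM scaling, whose factors differ by -0.16 on the log2 scale (less for low genes, given the 10 CPM added), the split was 403 higher and 631 lower.

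Genes of the thermogenic list were higher as a group. Of its 21 genes, Cox7a1 was below the minimum of UMIs, and 18 of the other 20 were at least 2-fold higher, with 0 lower. Their median log2 ratio was 3.40, against -0.03 over all genes. The list was drawn up with earlier results of these data known and is no independent evidence. Ebf2, a regulator of brown fat identity, and Adrb3, the beta-adrenergic receptor of mouse fat cells, stayed inside 2-fold.

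Gk, glycerol kinase, which lets a fat cell reuse the glycerol set free by lipolysis, had the highest log2 ratio with 10 CPM added among genes found in at least 10 of the nuclei. It stood at 2069 CPM (1970 to 2172) in Ucp1-positive and 75.2 CPM (71.1 to 79.4) in Ucp1-zero adipocytes, a log2 ratio of 4.61 (4.51 to 4.71), and was found in 144 of the 155 nuclei. Cidea stood at 918 CPM (852 to 988) against 50.1 CPM (46.8 to 53.6), an 18.3-fold difference. The intervals of the classes do not overlap for either gene. Cpt1b, the muscle form of the carnitine palmitoyltransferase that admits fatty acids to mitochondria, stood at 472 CPM against 19.1 CPM. Dio2 stood at 233 CPM (201 to 270) against 5.66 CPM (4.59 to 6.91), and Slc27a2 at 156 CPM against 2.10 CPM, a 74.0-fold difference. Dio2 and Slc27a2, whose windows were printed above with that of Ucp1, were thus low in Ucp1-zero adipocytes.

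The nuclear receptors, coactivators and other regulators in the thermogenic list also stood higher, all but Ebf2 at least 2-fold. Ppara, a receptor for fatty acids that drives their oxidation, stood at 3729 CPM (3595 to 3867) against 341 CPM (332 to 350). Esrrg, an estrogen-related receptor that drives mitochondrial genes, stood at 3127 CPM against 270 CPM. Its relative Esrra differed less, with 428 CPM against 118 CPM and a log2 ratio of 1.77. Ppargc1b, a coactivator of these receptors, differed 7.94-fold, at 3116 CPM against 393 CPM. Its paralog Ppargc1a, the cold-induced form, differed 4.31-fold, at 892 CPM against 207 CPM. Prdm16, a regulator of brown and beige identity, stood at 997 CPM against 400 CPM, a log2 ratio of 1.30. Ebf2 stood at 1175 CPM against 603 CPM, a log2 ratio of 0.95.

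Enzymes, channels and carriers of the list followed. Pank1, which starts coenzyme A synthesis, stood at 771 CPM against 64.4 CPM, and Acot11, an acyl-CoA thioesterase induced by cold, at 292 CPM against 12.9 CPM. Fabp3, a fatty acid carrier, stood at 115 CPM (92.3 to 141) against 1.34 CPM (0.851 to 2.01). Elovl3, which lengthens very long fatty acids, stood at 43.3 CPM (30.0 to 60.6) against 0.876 CPM (0.490 to 1.44). Kcnk3, a leak potassium channel, stood at 560 CPM against 37.5 CPM, and Otop1, a proton channel, at 47.2 CPM against 3.91 CPM. Cox8b, a cytochrome oxidase subunit of muscle and brown fat, had only 20 UMIs, 25.5 CPM (15.6 to 39.4) against 2.74 CPM. All of these members were at least 2-fold higher.

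**Figure D2:**
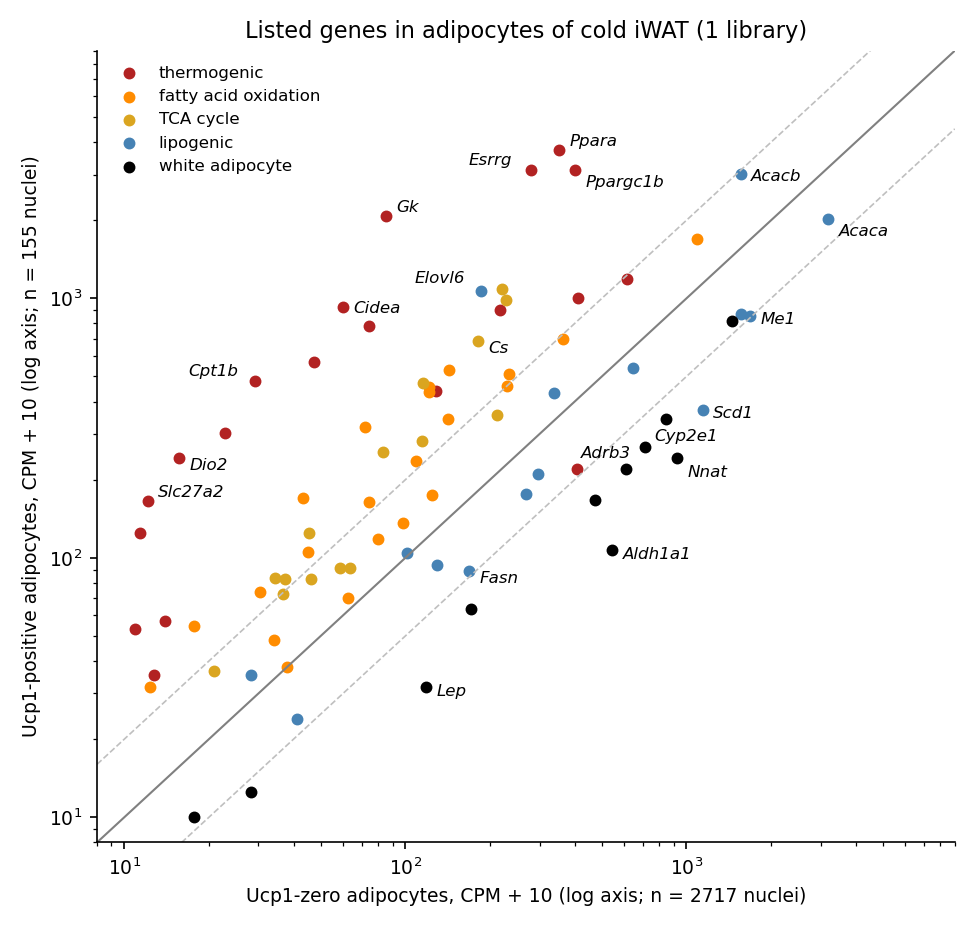
Level of each gene of 5 lists in Ucp1-zero (horizontal) and Ucp1-positive (vertical) adipocytes of cold iWAT, in CPM with 10 added, on log axes; the solid line marks equal levels and the dashed lines 2-fold. Thermogenic genes such as Gk (2069 against 75.2 CPM) lie far above the upper dashed line, and white adipocyte genes such as Aldh1a1 (96.9 against 533 CPM) below the lower one.

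Many genes of fatty acid oxidation and the citric acid cycle stood higher. All 23 oxidation genes had a ratio above 0, and 15 of them were at least 2-fold higher (median 1.15). Over all genes, here and for the lists below, 5875 of 12652 had a ratio above 0. Beyond Cpt1b, the carnitine carrier Slc25a20 stood at 518 CPM against 132 CPM, and Hadha and Hadhb, the subunits of the mitochondrial trifunctional protein, at 446 CPM against 111 CPM and 426 CPM against 112 CPM. Etfdh, which passes electrons from oxidation to ubiquinone, stood at 310 CPM against 62.1 CPM. Acads, which acts on short chains, differed by only 0.01 on the log2 scale. Ech1, at 38.2 CPM against 24.0 CPM (log2 ratio 0.51), was 1 of the low genes whose sign turned after thinning.

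All 15 citric acid cycle genes had a ratio above 0, and 9 were at least 2-fold higher (median 1.28). Ogdh, of the oxoglutarate dehydrogenase complex, stood at 978 CPM against 218 CPM. Cs, citrate synthase, stood at 677 CPM against 171 CPM. The pyruvate dehydrogenase genes Pdha1, Pdhb and Dlat differed by 0.53, 0.64 and 0.74 on the log2 scale. Pdk4, the kinase that shuts pyruvate dehydrogenase, stood at 1044 CPM (974 to 1118) against 102 CPM (96.9 to 106), a 10.3-fold difference.

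Nuclear genes of the respiratory chain also stood higher. All 32 had a ratio above 0 and 13 were at least 2-fold higher (median 0.95). Ndufv2, of complex I, stood at 229 CPM against 76.5 CPM, Sdhb, of complex II, at 153 CPM against 51.0 CPM, and Cox5a, of complex IV, at 93.1 CPM against 29.9 CPM. Atp5a1, of ATP synthase, stood at 110 CPM against 43.6 CPM. Cox8a, the common form of a subunit of which Cox8b is the muscle form, stood at 21.7 CPM (12.6 to 34.7) against 19.1 CPM, with overlapping intervals. After thinning the ratios of Ndufv1 and Uqcrb turned negative. The mitochondrial UMI share given above was also higher in Ucp1-positive nuclei, and its part in these ratios was not tested.

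Part of the glycolytic genes were higher as well, with 10 of 18 at least 2-fold higher, 0 lower and a median of 1.14. Pkm, pyruvate kinase, stood at 166 CPM against 31.7 CPM, Gpi1 at 199 CPM against 47.8 CPM and Ldhb, a lactate dehydrogenase subunit, at 70.1 CPM against 11.9 CPM. Ldha, the other subunit, stood at 49.7 CPM against 49.4 CPM. The glucose carrier Slc2a4 (47.2 CPM against 37.7 CPM) and the hexokinase Hk2 (264 CPM against 191 CPM) also stayed inside 2-fold.

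Lipogenic genes did not follow. Of the 15 genes of fatty acid synthesis, 1 was at least 2-fold higher, 1 at least 2-fold lower, and the median was -0.49. With TMM scaling 3 were lower, Fasn and Me1 joining Scd1. Elovl6, which lengthens palmitate, stood at 1053 CPM (982 to 1127) against 176 CPM (170 to 182). Scd1, the stearoyl-CoA desaturase, stood the other way, at 361 CPM (320 to 405) against 1132 CPM (1116 to 1148). Fasn, fatty acid synthase, stood at 79.0 CPM against 159 CPM, Acly, which makes cytosolic acetyl-CoA from citrate, at 200 CPM against 286 CPM, and Me1, a source of NADPH, at 844 CPM against 1669 CPM. The acetyl-CoA carboxylases split: Acaca, the cytosolic form, stood at 2005 CPM (1908 to 2107) against 3185 CPM, and Acacb, the form at the mitochondrial surface whose product restrains Cpt1b, at 2995 CPM (2875 to 3118) against 1550 CPM. Both carboxylases stayed inside 2-fold, with intervals that do not overlap. Scd1 in endothelial, stromal and immune nuclei of this library ran from 68.9 to 112 CPM, below its level in Ucp1-positive adipocytes.

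Triglyceride synthesis, droplets and lipid uptake were mixed. Of 10 triglyceride genes 2 were at least 2-fold higher, Gpd1 (311 CPM against 149 CPM) and Agpat3 (158 CPM against 67.5 CPM), and 0 were with TMM scaling. Among 7 lipolysis and droplet genes outside the rule, Plin2 stood at 608 CPM against 153 CPM and Plin5, which ties droplets to mitochondria, at 62.5 CPM against 5.72 CPM. The lipase Pnpla2 stood at 91.8 CPM against 126 CPM and its activator Abhd5 at 213 CPM against 326 CPM, both inside 2-fold. Plin3, at 24.2 CPM against 9.69 CPM, had a negative ratio after thinning. Of 13 uptake genes 2 were at least 2-fold higher, Vldlr, a lipoprotein receptor, at 245 CPM against 45.6 CPM, and the acyl-CoA synthetase Acsl5 at 76.5 CPM against 17.3 CPM. Cd36, Lpl and Fabp4 stayed inside 2-fold.

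White adipocyte genes were lower. Of 11 measured genes 9 were at least 2-fold lower and 0 higher, with a median of -1.42. Lep, the gene of leptin, stood at 21.7 CPM (12.6 to 34.7) against 109 CPM (104 to 114). Nuclei with a single Ucp1 UMI held 14 of its UMIs (63.2 CPM), those with 2 held 0 and those with at least 3 held 3 (7.11 CPM). Aldh1a1, a retinaldehyde dehydrogenase, stood at 96.9 CPM against 533 CPM, and Nnat, a small membrane protein gene of white fat, at 232 CPM (200 to 268) against 915 CPM (900.5 to 929). Cyp2e1 stood at 256 CPM against 705 CPM, Slc7a10, an amino acid carrier, at 210 CPM against 597 CPM, and Fgf10, a growth factor, at 157 CPM against 463 CPM. Nrip1, a corepressor of oxidative genes, stood at 807 CPM against 1446 CPM, inside 2-fold. Aldh1a1 also stood at 842 CPM in stromal nuclei, whose other markers were lower in Ucp1-positive adipocytes as given above, and the part of such RNA was not tested. Nnat in endothelial, stromal and immune nuclei ran from 58.0 to 88.3 CPM.

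Of the adrenergic and cyclic AMP genes, 4 of 22 were at least 2-fold higher and 1 lower. Gnas, which includes the stimulatory G protein subunit, stood at 1104 CPM (1032 to 1180) against 183 CPM (177 to 189). Among adenylyl cyclases, Adcy3 stood at 376 CPM (334 to 422), 6.27-fold higher, and Adcy5 the other way, at 108 CPM (86.6 to 134) against 423 CPM. Adra1a, an alpha-adrenergic receptor, stood at 1100 CPM against 240 CPM. Adrb3 stood at 210 CPM (179 to 245) against 397 CPM (388 to 406), a log2 ratio of -0.88 that passed 2-fold with TMM scaling, and Adrb1 at 35.7 CPM against 36.7 CPM. Nr4a1, an immediate response gene, rested on 20 UMIs, 25.5 CPM against 1.69 CPM. Pde3b, the phosphodiesterase through which insulin lowers cyclic AMP, stood at 2087 CPM against 3077 CPM, inside 2-fold.

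Genes reported elsewhere as beige markers were not uniformly higher. Of 7 measured, Slc36a2 (673 CPM against 261 CPM) and P2rx5 (72.7 CPM against 29.1 CPM, inside 2-fold with TMM scaling) were at least 2-fold higher and Klhl13 (6.37 CPM against 33.9 CPM) lower. Tmem26 had 1 UMI, Tbx1 and Tnfrsf9 2 each and Cited1 0 in the Ucp1-positive nuclei, where 3 UMIs amount to 3.82 CPM. Zic1, a marker of interscapular brown fat, had 0 UMIs in both classes. Of 6 measured classical brown markers only Pdk4, given above, passed 2-fold. Of calcium cycling genes 4 of 9 were at least 2-fold higher (3 with TMM scaling), among them the inositol trisphosphate receptor Itpr2, at 566 CPM against 119 CPM. Of the creatine cycle, Ckb stood at 15.3 CPM (7.91 to 26.7) against 2.69 CPM and Alpl at 15.3 CPM against 0.642 CPM, and 5 of 7 genes were too low to compare.

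Adipocyte regulators and secreted factors differed little. Of 18 regulators Cebpb was at least 2-fold higher, at 113 CPM against 34.0 CPM, and Irf4 at least 2-fold lower, at 7.65 CPM (2.81 to 16.6) against 30.2 CPM. Pparg, the master regulator of fat cells, stood at 2864 CPM against 3691 CPM. Of 8 secreted factors measured, 1 was at least 2-fold lower, Igf1, at 177 CPM (149 to 209) against 689 CPM (676 to 701). Nrg4, a factor released by brown fat, stood at 2467 CPM against 2619 CPM, and Vegfa, an angiogenic factor, at 528 CPM against 425 CPM. Of 9 proliferation genes 2 were measured and both stayed inside 2-fold, while Mki67 and Top2a had 0 UMIs in the Ucp1-positive nuclei.

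**Figure D3:**
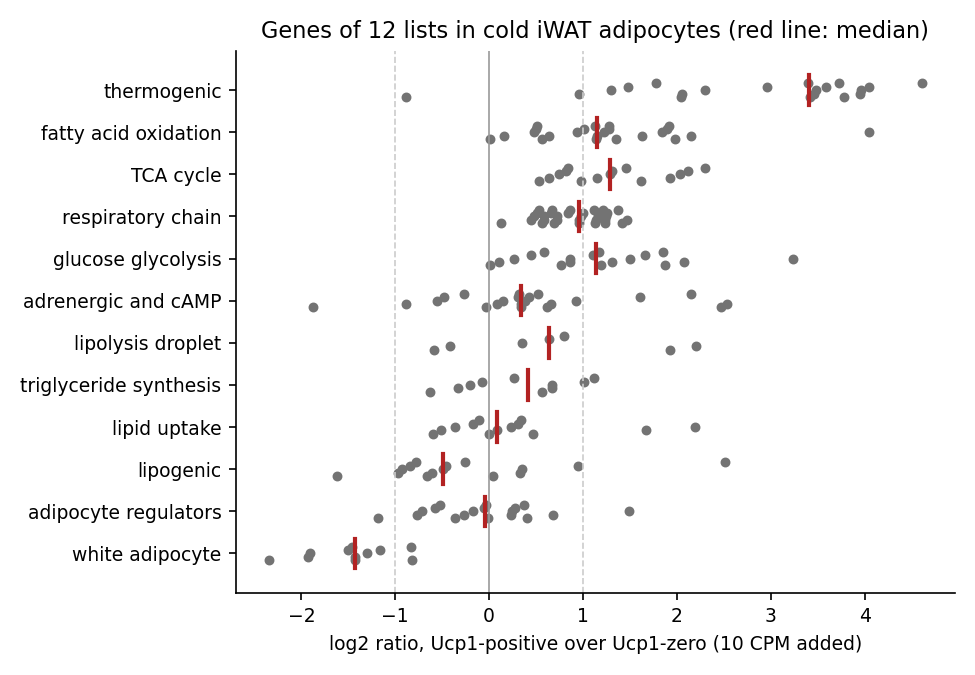
Log2 ratio of Ucp1-positive over Ucp1-zero adipocytes of cold iWAT with 10 CPM added (horizontal axis) for the measured genes of 12 lists; each grey point is a gene, the red line the list's median, and dashed lines mark 2-fold. Medians run from 3.40 for the thermogenic list to -1.42 for the white adipocyte list.

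With 10 CPM added, the 15 highest ratios among genes found in at least 10 of the nuclei belonged to Gk, Sept9, Cpt1b, Dio2, Cidea, Slc4a4, Slc27a2, Acot11, Aig1, Col27a1, Kcnk3, Impa2, Nrp2, Esrrg and Grk3. Of those outside the lists, Sept9, a septin of the cytoskeleton, stood at 402 CPM (358 to 448) against 13.1 CPM. Slc4a4, a sodium bicarbonate cotransporter, stood at 4001 CPM (3862 to 4143) against 266 CPM (259 to 274). Its level in stromal nuclei was 967 CPM. Stromal markers were lower in the Ucp1-positive adipocytes, and the part of such RNA was not tested. Aig1, a hydrolase of fatty acid esters, stood at 259 CPM against 10.4 CPM, Col27a1, a fibrillar collagen, at 218 CPM against 8.41 CPM, and Impa2, an inositol phosphatase, at 193 CPM against 7.53 CPM. Nrp2, a receptor for semaphorins and vascular growth factors, stood at 250 CPM against 13.1 CPM, and Grk3, a kinase that desensitises receptors, at 423 CPM against 29.2 CPM.

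Among the 15 lowest ratios on the same scale were those of Ptchd4, Eepd1, Cacna1e, Tshr, Dtna, Rgs7bp, Aldh1a1, Sntg2, Plxdc2, Lrrc4c, Clstn2, Plcl1, St6galnac5 and Gm4876. Ptchd4 had 0 UMIs, where 3 UMIs would be 3.82 CPM, against 61.2 CPM. Tshr, the receptor for thyrotropin, stood at 113 CPM (91.1 to 140) against 649 CPM (637 to 661). Eepd1 stood at 115 CPM against 740 CPM and Plcl1 at 244 CPM against 1174 CPM. These RNAs came from few of the nuclei: Tshr from 33, Plcl1 from 29 and St6galnac5 from 19 of 155.

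The 2 mPRAT libraries of 6 months allowed the same contrast in other nuclei. All 30 genes with the 15 highest and 15 lowest ratios had the same sign there, 30 of 30 in cold mPRAT and 30 of 30 at 22 °C. Only signs were compared, whatever the size of the ratio. Over all genes, 5921 of 12817 had a ratio above 0 in cold mPRAT and 6932 of 15425 at 22 °C. The share of all genes that kept their sign was not counted, so the 30 of 30 cannot be set against it. In cold mPRAT, 3.69% of genes were at least 2-fold higher and 4.03% lower. There 19 of 21 thermogenic genes were higher, and of 9 white adipocyte genes 8 were lower and 1 higher. At 22 °C, where 1.16% of genes were higher and 2.26% lower, 17 of 21 thermogenic genes were higher and 9 of 12 white adipocyte genes lower. The lipogenic medians were -0.43 in cold mPRAT and 0.14 in mPRAT at 22 °C, against -0.49 in cold iWAT.

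Single nuclei were compared after thinning to 1000 UMIs each. The 21 thermogenic genes together gave a median of 22 UMIs in Ucp1-positive adipocytes, with quartiles of 15.5 and 29 and a range of 0 to 58. The median was 2 in Ucp1-zero adipocytes and 2 in iWAT adipocytes at 22 °C, and 23 and 20 in Ucp1-positive adipocytes of cold iBAT and cold mPRAT. Of the 155 nuclei, 135 (87.1%) lay above 9, the 95th percentile of Ucp1-zero nuclei, and 3 (1.94%) lay at or below the Ucp1-zero median. In the other direction, 30 Ucp1-zero adipocytes (1.10%) reached 22 or more, and their median depth was 2788 UMIs against 4852 in the other Ucp1-zero nuclei. The Ucp1-positive nuclei that did not lie above 9 were within the range of most Ucp1-zero nuclei. The list was drawn up with earlier results of these data known, so this separation is no independent evidence.

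**Figure D4:**
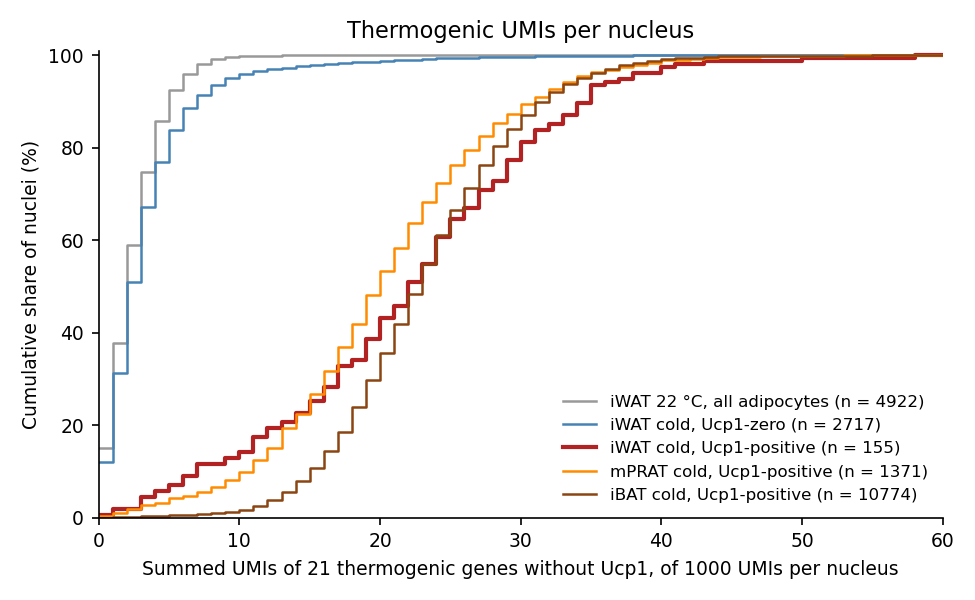
Cumulative share of nuclei (percent, vertical axis) by summed UMIs of 21 thermogenic genes without Ucp1 in nuclei thinned to 1000 UMIs (horizontal axis), for 5 classes of adipocyte nuclei. Ucp1-positive nuclei of cold iWAT (red, median 22) run with those of cold iBAT (median 23) and cold mPRAT (median 20), and have a longer low tail than cold iBAT.

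Cidea, Cpt1b and Gk were found together in 110 of the 155 nuclei (71.0%) without thinning. The same 3 genes were found together in 67 Ucp1-zero adipocytes (2.47%) and in 6 iWAT adipocytes at 22 °C (0.122%). None of the 3 was found in 7 Ucp1-positive nuclei (4.52%) and in 1863 Ucp1-zero nuclei (68.6%). Gk, Cpt1b and Cidea ranked 1, 3 and 5 among the highest ratios of this same contrast, so these counts are no separate evidence.

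The nuclei were also set out by their number of Ucp1 UMIs. Ucp1 chose the nuclei, so these classes are a description only. Between nuclei with 1, 2 and at least 3 Ucp1 UMIs, Gk stood at 1079 CPM (947 to 1225), 1787 CPM (1573 to 2021) and 2684 CPM (2530 to 2845). Cidea stood at 682, 907 and 1045 CPM in the same order. Some white adipocyte genes ran the other way, with Nnat at 605 CPM (507 to 717), 113 CPM (64.8 to 184) and 75.9 CPM (51.9 to 107). Cyp2e1 stood at 470, 262 and 142 CPM, Slc7a10 at 352, 291 and 109 CPM, and the lipogenic gene Scd1 at 736, 255 and 199 CPM. Other white adipocyte genes had no such order, with Aldh1a1 at 154, 241 and 19.0 CPM, Fgf10 at 190, 227 and 116 CPM and Npr3 at 339, 220 and 367 CPM. Median depth also differed, with 3386, 4009 and 4215 UMIs. The part of depth, and of free Ucp1 RNA in nuclei with a single Ucp1 UMI, in these levels was not tested. The thinned thermogenic sum had medians of 19.5, 19 and 23.5. The lower quartiles were 7.5, 14 and 19, so the lower nuclei with a single Ucp1 UMI reached into the range of the Ucp1-zero nuclei, whose 95th percentile was 9.

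Against iWAT at 22 °C, pooled RNA of both Ucp1-positive and Ucp1-zero nuclei of cold iWAT had higher levels of some lipogenic and thermogenic genes. The 2 comparisons share the same 22 °C library. In Ucp1-zero adipocytes, 13 of 15 lipogenic genes were at least 2-fold higher than at 22 °C (median 1.69), where 0.93% of all genes were higher and 1.54% lower. In Ucp1-positive adipocytes 9 of 15 were (median 1.26), where 4.48% of all genes were higher and 6.15% lower. Acly stood at 29.2 CPM at 22 °C, 286 CPM in Ucp1-zero and 200 CPM in Ucp1-positive adipocytes. Scd1 stood at 183, 1132 and 361 CPM, and Elovl6 at 30.5, 176 and 1053 CPM in the same order. The Scd1 level of Ucp1-positive adipocytes differed by Ucp1 UMIs, with 736 CPM in nuclei with 1. In nuclei with at least 3 it was 199 CPM (159 to 247), an interval that holds the level at 22 °C. For Acly and Scd1 the Ucp1-zero nuclei were highest, and for Elovl6 the Ucp1-positive ones.

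For thermogenic genes the Ucp1-positive nuclei had more members past 2-fold. Against 22 °C, 18 of 20 measured were at least 2-fold higher in Ucp1-positive adipocytes (median 3.67) and 6 of 19 in Ucp1-zero adipocytes (median 0.69). Per nucleus, the thinned thermogenic sum had a median of 2 and quartiles of 1 and 4 in Ucp1-zero adipocytes and at 22 °C alike. The means were 3.41 and 2.42 and the highest sums 38 and 14. The pooled rise in Ucp1-zero adipocytes thus does not describe their median nucleus. Gk stood at 26.8 CPM at 22 °C, 75.2 CPM in Ucp1-zero and 2069 CPM in Ucp1-positive adipocytes, and Esrrg at 77.1, 270 and 3127 CPM. Of white adipocyte genes, 7 of 11 measured were at least 2-fold lower than at 22 °C in Ucp1-positive adipocytes and 0 higher, and 3 of 12 were lower and 1 higher in Ucp1-zero adipocytes. Nnat stood at 1882, 915 and 232 CPM, Lep at 234, 109 and 21.7 CPM and Retn, the gene of resistin, at 112, 160 and 53.5 CPM, each lowest in Ucp1-positive nuclei. In nuclei with a single Ucp1 UMI, however, Retn stood at 117 CPM (76.7 to 172), near its level at 22 °C. With 2 Ucp1 UMIs it stood at 49.6 CPM, and with at least 3 at 21.3 CPM. Cyp2e1 stood at 233 CPM at 22 °C, 705 CPM in Ucp1-zero and 256 CPM in Ucp1-positive adipocytes. The log2 ratio of pooled Ucp1-positive adipocytes over 22 °C was 0.134 (-0.060 to 0.328), so these 2 pooled levels were not told apart. Nuclei with 1, 2 and at least 3 Ucp1 UMIs, however, stood at 470 CPM (384 to 569), 262 CPM and 142 CPM (109 to 183). The first interval lies above the 233 CPM of 22 °C and the last below it. Markers of T and NK cells summed to 54.7 CPM in adipocytes at 22 °C, 8.00 CPM in Ucp1-zero and 7.65 CPM in Ucp1-positive adipocytes of cold iWAT. B cell markers summed to 37.7, 5.37 and 5.10 CPM, mural ones to 52.1, 8.70 and 10.2 CPM and stromal ones to 383, 270.02 and 156 CPM, and their part in these ratios was not tested. The lipoprotein lipase gene Lpl stood at 559, 2071 and 1840 CPM, close in both classes of cold iWAT and higher than at 22 °C.

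Ucp1-positive adipocytes of cold iBAT (10774 nuclei) and cold mPRAT (1371 nuclei), chosen by the same rule, came from the other depots kept in the cold. Ucp1 itself stood at 681 CPM in cold iWAT, 1479 CPM in cold iBAT and 1119 CPM in cold mPRAT. It chose these nuclei, at median depths of 3953, 6812 and 4696 UMIs, so its levels are a description only. Thermogenic genes stood at lower levels for some members and at higher levels for a few. Against cold iBAT 0 of 21 were at least 2-fold higher and 6 lower (median -0.57), where 2.99% of all genes were higher and 3.81% lower. Against cold mPRAT 0 were higher and 5 lower (median -0.21), where 2.3% of all genes were higher and 5.85% lower. The 2 comparisons share the cold iWAT nuclei.

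Cidea stood at 918 CPM in cold iWAT, 994 CPM in cold iBAT and 879 CPM in cold mPRAT, and Dio2 at 233, 221 and 253 CPM. Gk stood at 2069, 1606 and 1955 CPM, close in cold iWAT and cold mPRAT. Ppara stood at 3729, 2273 and 2479 CPM, highest in cold iWAT. Elovl3 stood at 43.3, 206 and 156 CPM, Acot11 at 292, 1220 and 803 CPM and Cox8b at 25.5, 88.7 and 88.7 CPM, each lowest in cold iWAT. Over the list, 4 of 21 genes had a ratio above 0 against cold iBAT, where 6239 of all 15539 had, and 8 of 21 against cold mPRAT, where 4343 of all 11803 had. The median over all genes was -0.06 against cold iBAT and -0.16 against cold mPRAT, the second near the list's own.

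Part of the lipogenic and glycolytic genes were lower than in both, and 0 of either list were at least 2-fold higher. Against cold iBAT 7 of 15 lipogenic genes were at least 2-fold lower (median -0.94) and against cold mPRAT 9 of 15 (median -1.10). Fasn stood at 79.0 CPM in cold iWAT, 1138 CPM in cold iBAT and 767 CPM in cold mPRAT, and Acly at 200, 1390 and 1028 CPM. Mlxipl, a carbohydrate-sensing transcription factor, stood at 421, 2348 and 1694 CPM. Of 18 glycolytic genes 12 were lower against cold iBAT (median -1.20) and 7 against cold mPRAT (median -0.79). Hk2 stood at 264, 1357 and 1227 CPM, and Acsl5 at 76.5, 1264 and 777 CPM.

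Most measured white adipocyte genes were higher than in both. Against cold iBAT 8 of 11 measured were at least 2-fold higher (median 2.38), and against cold mPRAT 7 of 9 (median 1.24). Nnat stood at 232 CPM in cold iWAT, 7.23 CPM in cold iBAT and 16.1 CPM in cold mPRAT. Of its 182 UMIs in cold iWAT, 134 came from the 46 nuclei with a single Ucp1 UMI, and the 80 nuclei with at least 3 stood at 75.9 CPM, inside the 58.0 to 88.3 CPM of other nuclei in that library. Cyp2e1 stood at 256, 5.90 and 103 CPM, and Fgf10 at 157, 6.27 and 69.0 CPM. Car3, a carbonic anhydrase of white fat and muscle, had the highest ratio against cold iBAT with 10 CPM added, at 1186 CPM (1111 to 1264) against 35.8 CPM, and stood at 297 CPM in cold mPRAT and 3748 CPM in Ucp1-zero adipocytes of cold iWAT. The next genes against cold iBAT were Prr16, Auts2, Cyp2e1, Adamts12, Lhfpl2, Nnat and Gulp1.

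Tbx15, a transcription factor patterned by body region, stood at 126 CPM (103 to 154) in Ucp1-positive and 119 CPM in Ucp1-zero adipocytes of cold iWAT, 15.5 CPM in cold iBAT and 0.413 CPM in cold mPRAT. Zfhx4, another transcription factor, had the highest ratio against cold mPRAT with 10 CPM added, at 576 CPM against 25.5 CPM, and stood at 491 CPM in cold iBAT. Hoxc9 stood at 29.3 CPM (18.6 to 44.0) in Ucp1-positive and 29.2 CPM in Ucp1-zero adipocytes, 13.5 CPM in cold mPRAT and had 0 UMIs in cold iBAT. For Tbx15 and Hoxc9 the level in Ucp1-zero nuclei of the same library lay within the interval of the Ucp1-positive ones. Zic1 stood at 17.1 CPM in cold iBAT and had 0 UMIs in the cold iWAT nuclei, which allows up to 3.82 CPM.

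The lowest ratios against cold iBAT belonged to Ttc25, Gmpr, Pitpnc1, Acsl5, Rbfox1, Ptgds, A530065N20Rik and Slc29a1. Gmpr, a GMP reductase, stood at 21.7 CPM (12.6 to 34.7) against 937 CPM, and at 250 CPM in cold mPRAT. Pitpnc1, a phospholipid transfer protein, stood at 43.3 CPM against 1052 CPM. Ttc25 stood at 7.65 CPM (2.81 to 16.6) against 541 CPM, and near its 8.41 CPM in Ucp1-zero adipocytes. The lowest against cold mPRAT were Gstm1, S100a6, Foxp2, Sh3gl2, Ttc25, Ankfn1, Sprr1a and Tmprss2. Each of these but Ttc25 had 0 or 1 UMI in the cold iWAT nuclei. Markers of other cell types also differed between the Ucp1-positive classes. Stromal markers summed to 156 CPM in cold iWAT, 32.0 CPM in cold iBAT and 35.1 CPM in cold mPRAT, and blood endothelial ones to 115, 166 and 399 CPM. Mural markers summed to 10.2, 16.4 and 44.2 CPM, mesothelial ones to 1.27, 1.70 and 23.1 CPM and epithelial ones to 0, 0.751 and 53.6 CPM. Their part in the ratios against cold iBAT and cold mPRAT was not tested.

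**Figure D5:**
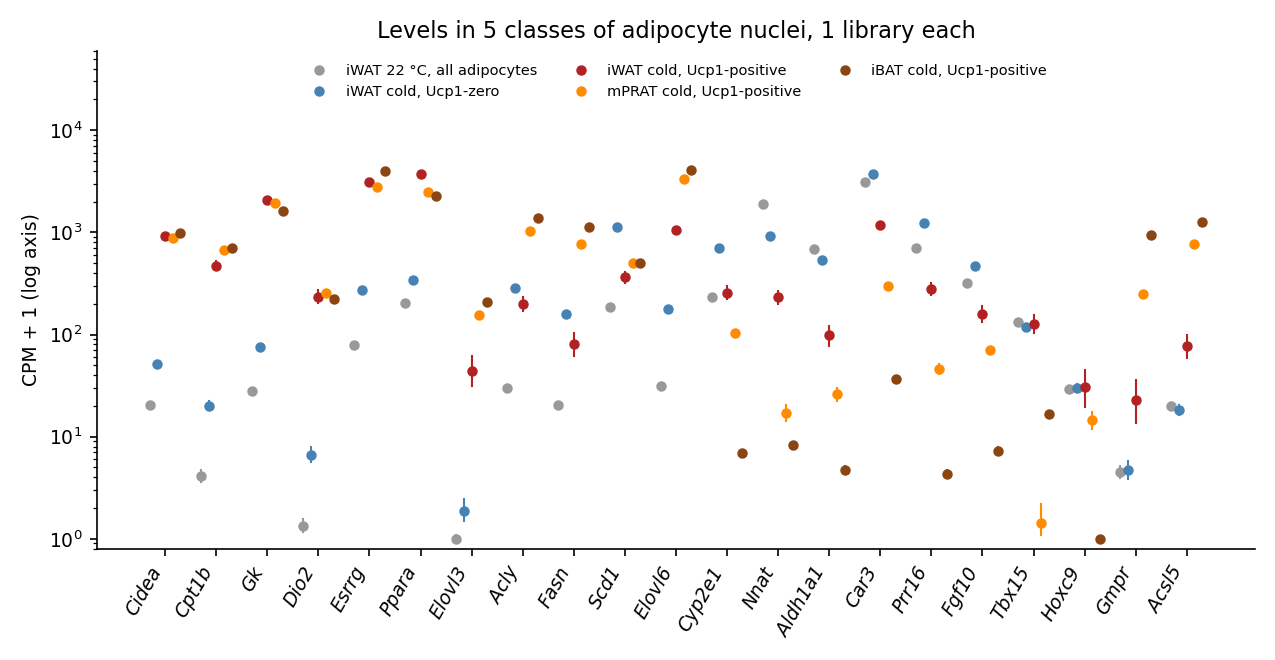
Levels of 21 genes (CPM with 1 added, log axis) in 5 classes of adipocyte nuclei, 1 library each; bars are exact Poisson 95% intervals. Ucp1-positive nuclei of cold iWAT (red) stand with the other Ucp1-positive classes for Cidea, Gk and Dio2, and between those and the Ucp1-zero nuclei for Cyp2e1, Nnat and Car3.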

How the data were processed

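UMI counts per gene and barcode, deposited by the authors without normalization, were made with Cell Ranger 7.0.0, per the file headers, on mm10, per the submitters' processing notes. Intron counting and later filters are not given in the sources used here. Each of the 12 libraries came from about 20000 loaded nuclei sorted by 7-AAD, per the labels' protocols, and the cold iWAT library held 21017422 UMIs. All counts below were computed from those files. Nuclei were chosen by the rule at the head of the results, and no doublet was removed except in an alternative (scrublet in scanpy 1.11.5, highest scores at 0.8% per 1000 nuclei: 202 of 5028 barcodes and 9 of the 155; its own threshold marked 3.26% in cold iWAT and 0 in cold iBAT). Levels are UMIs summed over a class per 1000000, with exact Poisson intervals; log2 ratios have 10 CPM added, need at least 20 UMIs over both classes and carry a delta-method interval. Rule genes and mitochondrial genes were left out of counts. No test was run, since each group has 1 library. Named were the 15 highest and 15 lowest genes of the contrast within cold iWAT (the highest with a UMI in at least 10 nuclei), the 8 highest and lowest of the other comparisons, and members of 18 lists (269 genes). A few genes that these rules select are not reported here. Nuclei, lists and named-gene rules were chosen with earlier results of these data known. Of genes with 2 identifiers, the one with more UMIs was used. Positions come from GENCODE M21 (GRCm38) and promoters from RefSeq. Alternatives were edgeR 4.0.16 TMM scaling, equal weight per nucleus, thinning, depth weighting, stricter rules, doublet removal, other added CPM and no UMI minimum. The ratio code was tested on simulated counts.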

Additional observations from a re-analysis of the deposited data

Results flagged for a closer look

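The lipogenic genes differed between libraries under the same contrast of Ucp1-positive over Ucp1-zero adipocytes. Their median log2 ratio was -0.49 in cold iWAT and 0.14 in mPRAT at 22 °C and 6 months, of opposite sign, while cold mPRAT gave -0.43. The difference between libraries was not tested, since each group has 1 library.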

How the results depend on the processing

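No paired analysis was possible because each group has 1 library, and both classes of cold iWAT come from a single library. Of 118 named or listed genes past 2-fold, 10 were inside it with TMM scaling, 42 with 50 CPM added, 4 of 113 after thinning, and 2 each with equal weight per nucleus, depth weighting and at least 2 Ucp1 UMIs. With TMM scaling the genes at least 2-fold higher were 12 of 23 for fatty acid oxidation, 11 of 32 for the respiratory chain and 9 of 18 for glycolysis. Of all 516 higher genes, 403 stayed so with TMM scaling and 399 after thinning. Among ratios beyond their counting error, signs turned for 4 low genes after thinning (Ech1 -0.056, Ndufv1 -0.28, Plin3 -0.28, Uqcrb -0.38). The creatine cycle median also turned with no UMI minimum (-0.017). Sign changes of smaller ratios are not given here. Adding 1 CPM gave 1242 higher and 2085 lower genes and adding 50 CPM 176 and 143. With 50 CPM the medians were 2.16 (thermogenic), 0.84 (fatty acid oxidation), 0.51 (respiratory chain) and 0.74 (citric acid cycle). Thinning gave 1121 lower genes. Thinning gave no median for the creatine cycle and proliferation lists, since no gene passed. Equal weight per nucleus put the medians at -0.77 (lipogenic) and -1.92 (white adipocyte). With at least 2 Ucp1 UMIs they were -0.78 and -1.88, with 3.57 for thermogenic genes. Against cold iBAT, thinning gave 1277 lower genes, and adding 1 CPM 1310 higher, 2705 lower and medians of -1.23 (lipogenic) and 3.57 (white adipocyte). With at least 2 Ucp1 UMIs these medians were -1.24 and 2.07. Against cold mPRAT, thinning gave 1130 lower genes, adding 1 CPM 523 higher, 2544 lower and a white adipocyte median of 1.58. With at least 2 Ucp1 UMIs the medians there were -1.38 and 1.51. The share in cold iWAT was 5.40% without thinning. The other 125 values of the main comparisons stayed within their counting error or within 1.5 times the count reported. The cause of each move was not tested, except that added CPM acts on low genes by construction. One UMI is 1.27 CPM in the Ucp1-positive nuclei, which limits genes near 10 CPM.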

Other observations

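Ucp1-zero adipocytes of cold iWAT held 67 nuclei with UMIs of Cidea, Cpt1b and Gk together. Their median depth was 4956 UMIs, against 4815 over all Ucp1-zero adipocytes, and their median thermogenic sum was 16 of 1000 UMIs, against 2 over the class. The sum includes the 3 genes that chose these nuclei, so part of that difference is fixed by the choice.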
